A study of Mus musculus with 7 samples.

Results

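Gene expression was compared between the cut Achilles tendon and the tendon of mice that had received no injury. RNA sequencing libraries were chosen by their condition label, which gave 4 of the 7 libraries of the series, 2 labelled as the tenotomy site and 2 labelled as uninjured. All came from hindlimb tendon of mice of C57BL/6 background. Mice of the tenotomy group had received a partial-thickness burn of the back, made with a heated block (60°C, 18 s, 30% of the skin area). In the same session the Achilles tendon of the left hindlimb was cut at its midpoint, and the site was taken 3 weeks later. Mice of the uninjured group were wild type and had neither burn nor tenotomy, so the comparison holds the effects of burn and tenotomy together. The remaining 3 libraries, from the uncut limb of burned mice, entered the statistical fit and are given only as a reference. The tissue taken ran from the gastrocnemius muscle to the heel bone, so a library can hold muscle, fat, nerve and skeletal tissue as well as tendon. The labels do not say whether replicate libraries came from separate mice, and p-values then measure only the spread between these libraries.

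Burn with tenotomy is a mouse model of heterotopic ossification, the growth of cartilage and then bone in soft tissue. In endochondral ossification, mesenchymal cells condense, the transcription factor SOX9 turns on a cartilage matrix of type II, IX and XI collagens and aggrecan, and this cartilage is later replaced by bone. Transforming growth factor β (TGF-β) and bone morphogenetic proteins (BMPs) drive the process, and TGF-β activated kinase 1 (TAK1, encoded by Map3k7), the kinase the series was designed around, is one of their intracellular relays.

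The 4 libraries held between 26523862 and 35022050 estimated counts, of which 4934057 to 6557343 lay outside the 5 most abundant features. Those 5 features took 79.4% to 81.4% of each library. Mitochondrial ribosomal RNA took 2.60%, 2.56% and 2.75% of tenotomy replicate 1, tenotomy replicate 2 and uninjured replicate 1, and 7.16% of uninjured replicate 2. The numbers in the sample titles fall in 3 series. The lowest numbers include tenotomy replicate 1. The second series joins 1 library of each group, tenotomy replicate 2 with uninjured replicate 1, and uninjured replicate 2 stands alone in the last. No label calls these series batches. Values below are CPM, counts put on a common library size with scaling by the trimmed mean of M values. CPM compare libraries for 1 gene and not genes with each other.

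The 2 libraries labelled uninjured did not resemble each other. Of 16028 genes tested, 3215 (20.1%) differed at least 2-fold between uninjured replicates 1 and 2. Between the tenotomy replicates this number was 471 (2.94%). The library labelled uninjured replicate 1 lay close to both tenotomy libraries, with 565 genes (3.53%) at least 2-fold from tenotomy replicate 1 and 659 (4.11%) at least 2-fold from tenotomy replicate 2. Uninjured replicate 2 was at least 2-fold from the tenotomy replicates at 3394 (21.2%) and 3444 genes (21.5%). Of the 3215 genes that set the uninjured libraries apart, the tenotomy mean was nearer to replicate 1 at 2924 (90.9%). Each comparison is therefore given against each uninjured library on its own.

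**Figure D1:**
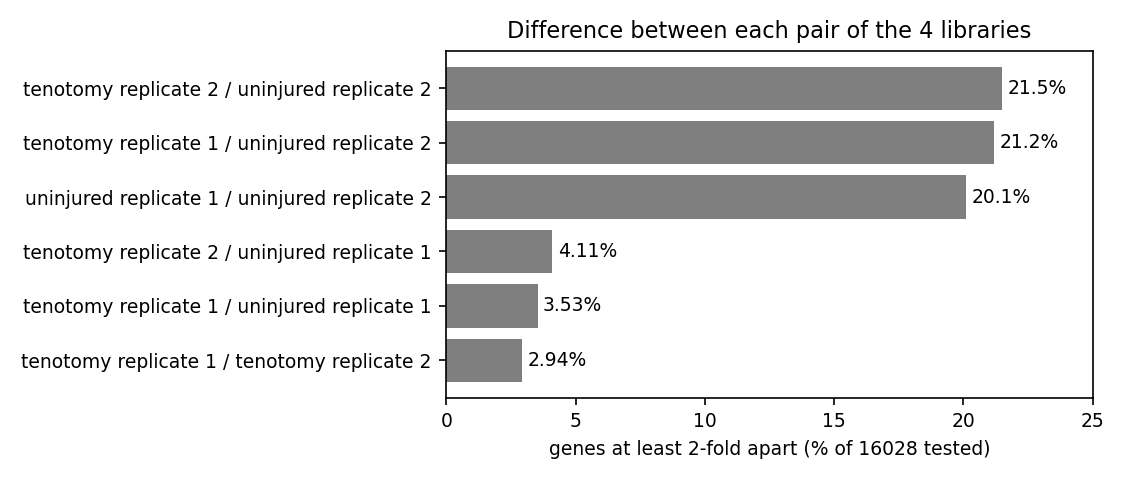
Share of the 16028 tested genes that differed at least 2-fold, in %, for each pair of the 4 libraries (bars, one per pair). The 3 pairs without uninjured replicate 2 stay between 2.94% and 4.11%, and the 3 pairs with it lie between 20.1% and 21.5%.

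No gene passed the test of both tenotomy against both uninjured libraries. edgeR's quasi-likelihood test called 0 of 16028 genes (0.0%) at an adjusted p-value under 0.05, and the smallest adjusted p-value was 0.261. At an unadjusted p-value under 0.05 it held 524 genes higher and 1217 lower at the tenotomy site, and limma-voom, which also called 0, held 773 and 717. DESeq2 gave an adjusted p-value to 2977 genes and called 5 of them higher (0.168%) and 140 lower (4.7%). Col2a1, Ccn1, Nfatc1 and Plod2 were among the 5.

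Genes were also sorted by whether the groups overlapped. Both tenotomy libraries lay above both uninjured libraries at 3214 genes (20.1%) and below both at 3271 (20.4%). A gap, the distance between the nearest libraries of the groups on a log2 CPM scale, reached 2-fold at 53 genes higher (0.331%) and 36 genes lower (0.225%) at the tenotomy site. Of the 53, 29 were named genes, 15 were placeholder, mitochondrial or pseudogene entries and 9 were single transcripts with no match in the annotation. Of the 36, the same classes held 18, 11 and 7.

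Cartilage matrix genes were the list with most members among the 29 named genes with a 2-fold gap upward. Of 24 genes on the cartilage list, 21 were tested, 14 lay above and 4 below both uninjured libraries (all genes 20.1% and 20.4%), and 3 overlapped. A 2-fold gap upward was present at 8 of the 21, where 0.331% of all tested genes had one. The filter on low counts kept a gene that was high in the tenotomy libraries only. Cnmd, with 62 and 47 counts there and at most 6 in any other library, was tested for that reason alone. Col9a1, Col9a2, Col9a3 and Ucma likewise depended on the tenotomy libraries to pass. They held 22, 16, 36 and 16 counts in uninjured replicate 1 and at most 11 in any other library outside the tenotomy site. The number with a gap is thus in part set by the filter, which was the same for all genes. The median log2 fold change of the list was 1.28, against -0.01 over all genes tested. None of the 21 passed the edgeR test of both groups.

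Col2a1 (ENSMUSG00000022483, protein coding, GRCm38 chr15:97975602-98004695, minus strand) encodes the α1 chain of type II collagen, the main fibre of cartilage. It stood at 126 and 125 CPM in tenotomy replicates 1 and 2, at 16.6 CPM in uninjured replicate 1 and at 1.55 CPM in uninjured replicate 2. In the 3 uncut limbs it stood between 0.402 and 0.655 CPM. The tenotomy libraries were alike and the groups were 2.92 apart at their nearest libraries on the log2 scale. The log2 fold change was 3.80 (SE 0.89), with an adjusted p-value of 0.45 in edgeR and 0.00148 in DESeq2. Against uninjured replicate 1 alone, which shares a title series with tenotomy replicate 2, the edgeR log2 fold change was 2.93. With 1 uninjured library, that fit holds no spread between uninjured libraries.

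Type IX collagen decorates type II fibrils and is built from the products of Col9a1, Col9a2 and Col9a3. Col9a1 (ENSMUSG00000026147, protein coding, GRCm38 chr1:24177610-24252684, plus strand) had the widest upward gap of the list, at 3.01. Its CPM were 6.96 and 6.83 at the tenotomy site, 0.790 in uninjured replicate 1 and 0.206 in uninjured replicate 2. Col9a2 (ENSMUSG00000028626, protein coding, GRCm38 chr4:121039385-121055322, plus strand) read 3.51 and 3.27 CPM against 0.575 and 0.138. Col9a3 read 7.56 and 6.70 CPM against 1.29 and 0.0344, the last being 1 count. In all 3 genes uninjured replicate 2 was the lowest of the 4 libraries and uninjured replicate 1 came next.

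The 250 bases before the start of Col9a1 and of Matn3 are shown as examples. Both genes had a 2-fold gap, and their RefSeq start is also the start of the gene in GENCODE M21. Ucma met the same conditions and is not shown. Matn3 encodes a matrilin of growth cartilage. Sequences are RefSeq's for GRCm38.p6, 5′ to 3′ in the direction of the gene, at chr1:24177360-24177609 (the first of 2 starts listed for Col9a1) and chr12:8947679-8947928, both on the plus strand. Capitals mark the motif GGGCGG on either strand, a GC box of the kind bound by SP1.
Col9a1: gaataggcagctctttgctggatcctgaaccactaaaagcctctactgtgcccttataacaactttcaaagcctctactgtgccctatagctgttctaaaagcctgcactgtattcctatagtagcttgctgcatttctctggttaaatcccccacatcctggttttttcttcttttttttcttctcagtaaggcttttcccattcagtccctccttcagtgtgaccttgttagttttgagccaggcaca
Matn3: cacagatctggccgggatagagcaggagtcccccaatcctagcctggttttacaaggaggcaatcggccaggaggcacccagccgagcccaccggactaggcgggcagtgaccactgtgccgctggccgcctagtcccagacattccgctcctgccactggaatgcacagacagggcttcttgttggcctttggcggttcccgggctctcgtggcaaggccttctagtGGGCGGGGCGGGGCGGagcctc
GGGCGG occurred 3 times before Matn3, counting overlapping matches, and not before this start of Col9a1, and 32.7% of 32851 promoter windows of 250 bases held it. The letters TATAAA, the core of a TATA box, were in neither window and in 12.4% of all windows. ACAAAG and ACAATG, forms of the core bound by SOX proteins, were searched on both strands in the windows of the 6 cartilage genes that have one among the 8 with a 2-fold gap. No window of these 6 genes held either motif, and 25.2% of all windows did. A missing match says only that these letters are not in this window.

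The other members with a 2-fold gap encode proteins that link or accompany the cartilage network. Cnmd, which encodes the vessel-repelling cartilage protein chondromodulin, read 1.69 and 1.57 CPM at the tenotomy site against 0.108 and 0.206, and was the member where uninjured replicate 1 lay lowest. Hapln1, the link protein that fixes aggrecan to hyaluronan, read 13.2 and 12.8 CPM against 4.53 and 0.585. Matn3 read 8.81 and 8.60 CPM against 2.98 and 0.378. Ucma, a small protein of young chondrocytes, read 2.01 and 2.40 CPM against 0.575 and 0.310.

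Aggrecan and SOX9 lay above both uninjured libraries with smaller gaps. Acan, the aggrecan core protein, read 80.8 and 86.1 CPM at the tenotomy site, 45.9 in uninjured replicate 1 and 1.24 in uninjured replicate 2. Its log2 fold change of 1.82 (SE 1.14) had an adjusted edgeR p-value of 0.556. Sox9, the master factor of chondrocytes, read 7.07 and 7.27 CPM against 4.28 and 1.62. Type XI collagen genes were split, as Col11a1 read 138 and 133 CPM against 104 and 21.7, and Col11a2 read 28.2 and 27.4 CPM against 13.3 and 17.2. In Col11a2 it was uninjured replicate 1 that lay farther from the tenotomy site.

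Not all members of the list followed type II collagen. Chad (chondroadherin) read 5.63 and 5.97 CPM at the tenotomy site against 11.0 and 59.6. DESeq2 called Chad lower, with a log2 fold change of -2.60 and an adjusted p-value of 0.0105. Prg4 (the joint lubricant lubricin) read 21.3 and 20.3 CPM against 24.5 and 101. Sox6 and Cytl1 also lay below both uninjured libraries. Sox5 overlapped, with 2.39 and 2.33 CPM against 2.16 and 2.41. Col10a1, the collagen of hypertrophic cartilage, overlapped at 0.245 and 0.700 CPM against 0.790 and 0.619. Matn1 and Ihh had at most 1 count in any of the 4 libraries, and Snorc had 9 and 5 counts at the tenotomy site and 0 in both uninjured libraries.

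**Figure D2:**
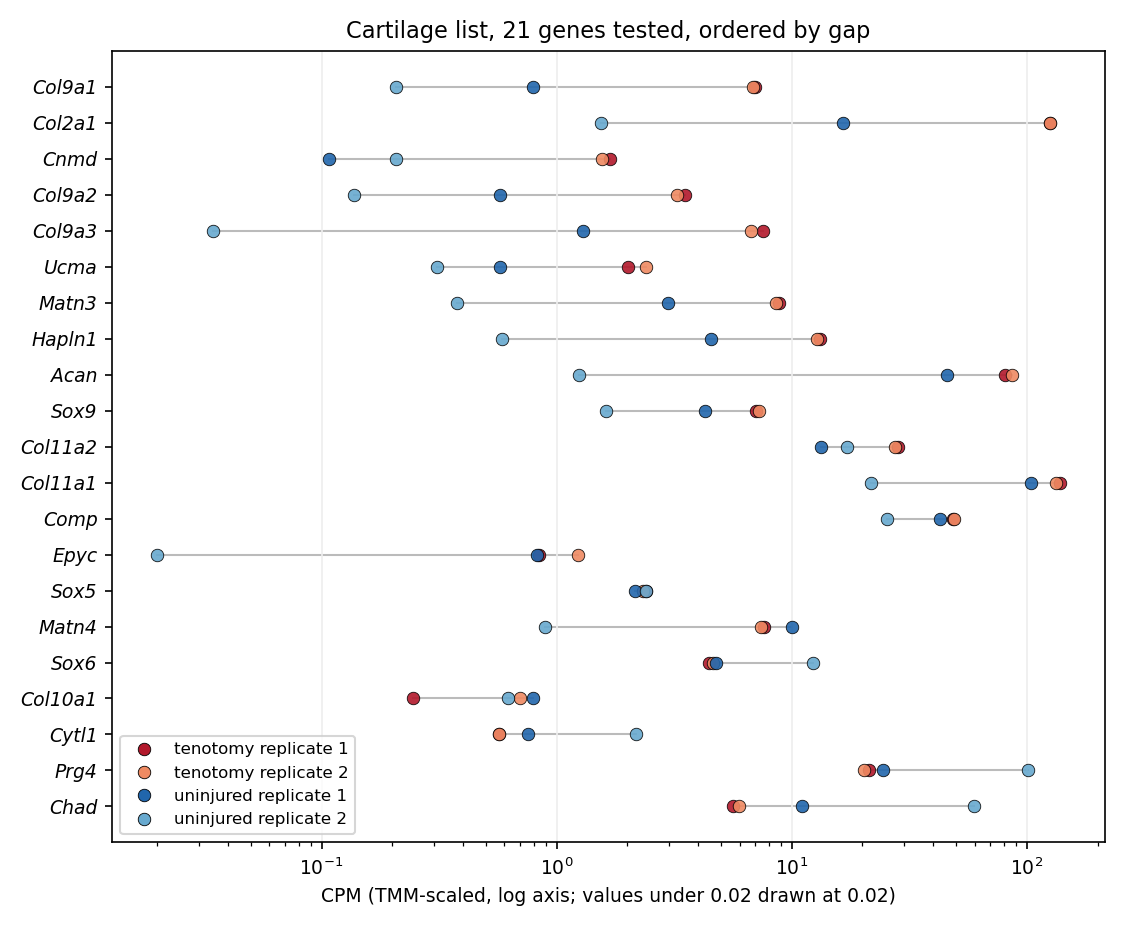
Expression of the 21 tested cartilage genes in CPM (log axis), one point for each of the 4 libraries, ordered by the gap between groups. The red and orange tenotomy points lie together, and for the top 8 genes both uninjured points lie at least 2-fold to their left. Farther down, uninjured replicate 1 moves towards the tenotomy points, and at the bottom the order of the groups is turned.

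Cartilage genes were the main group called when the tenotomy site was compared with uninjured replicate 1 alone. That fit, in which the single uninjured library is assumed to vary like the other groups, called 10 features higher (0.0593% of 16877) and 4 lower (0.0237%). Of the 10, 7 were on the cartilage list, namely Col2a1, Col9a1, Col9a2, Col9a3, Hapln1, Matn3 and Cnmd. Rap2a and 1 unmatched transcript were among the others. The 4 lower features were Cd163l1, the predicted genes Gm45837 and Gm18853, and 1 unmatched transcript. The fit against uninjured replicate 2 alone called 1937 genes higher (11.4% of 17018) and 2338 lower (13.7%). Of the 14 features called against replicate 1 alone, 12 were called in the same direction against replicate 2 alone. The fits share the tenotomy libraries. With 1 uninjured library each, neither holds any spread between uninjured libraries, which differed at least 2-fold at 20.1% of the tested genes. Their calls do not cover that spread.

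Both tenotomy libraries were at least 2-fold above uninjured replicate 1 at 151 genes (0.942%) and below it at 81 (0.505%). Against uninjured replicate 2 these numbers were 1310 (8.17%) and 1396 (8.71%). Of the 1934 tested genes called higher against replicate 2 alone, 1141 also lay above replicate 1, 37 of them with a 2-fold gap. Of the 2321 called lower, 1287 also lay below replicate 1, and 31 had a 2-fold gap.

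Markers of muscle differed between the same libraries in the opposite direction. The summed level of the 28 skeletal muscle fibre genes was 2271 and 2284 CPM at the tenotomy site, 2902 CPM in uninjured replicate 1 and 19510 CPM in uninjured replicate 2. Its part in the cartilage result was not tested. Against uninjured replicate 1 the median difference of the cartilage list was 0.74 on the log2 scale, and against uninjured replicate 2 it was 2.64. In bulk tissue, fewer cells of a type and less RNA per cell cannot be told apart.

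Bone genes did not follow the cartilage genes upward. Of 16 genes on the bone formation list, 8 were tested, 2 lay above and 2 below both uninjured libraries (all genes 20.1% and 20.4%), and the median log2 fold change was -0.29. Ibsp (bone sialoprotein, ENSMUSG00000029306, protein coding, GRCm38 chr5:104299171-104311469, plus strand) had the widest downward gap of all named genes, at 2.04. It read 0.0816 and 0.100 CPM at the tenotomy site, or 3 counts in each library, against 0.611 CPM in uninjured replicate 1 and 2.37 CPM in uninjured replicate 2. In the uncut limbs it read 4.02 to 8.39 CPM. Alpl, the alkaline phosphatase of mineralizing cells, read 0.490 and 0.300 CPM against 0.611 and 0.860.

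The bone regulators were not separated. Runx2, the transcription factor that commits cells to bone, read 2.96 and 3.00 CPM at the tenotomy site against 3.48 in uninjured replicate 1 and 1.03 in uninjured replicate 2. Sp7, which acts after Runx2, never passed 4 counts and was not tested, and Bglap, Dmp1 and Sost, genes of mature bone cells, were also removed by the filter. Spp1 (osteopontin), which macrophages also make, read 47.9 and 47.8 CPM against 41.5 and 5.02. Of 8 tested osteoclast genes, 5 lay above both uninjured libraries and 0 below (all genes 20.1% and 20.4%). Ctsk, the collagen-digesting cathepsin, read 25.37 and 25.96 CPM against 25.04 and 4.16. For Spp1 and Ctsk alike, uninjured replicate 1 lay near the tenotomy libraries and uninjured replicate 2 far below.

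Signalling genes of the TGF-β family showed mostly small differences. Of 34 tested genes of the TGF-β and BMP list, 14 lay above and 2 below both uninjured libraries (all genes 20.1% and 20.4%), with a median log2 fold change of 0.08. Among ligands, Tgfb1 read 3.56 and 3.77 CPM at the tenotomy site against 3.52 and 1.69. Inhba, which encodes the activin A subunit, read 2.77 and 2.90 CPM against 1.51 and 0.654, a gap of 0.85. Bmp4 lay below, with 0.707 and 0.600 CPM against 1.01 and 1.17.

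Receptors and SMAD relays differed less. Tgfbr1 read 10.4 and 10.2 CPM at the tenotomy site against 9.95 and 8.64, and its sign turned with length-scaled TPM (log2 fold change 0.15 to -0.10). Smad1, a BMP relay, read 5.14 and 5.90 CPM against 4.42 and 3.48. Smad3, a TGF-β relay, overlapped, and so did the BMP target genes Id1, Id2 and Id3. Ccn2, a matrix protein gene induced by TGF-β, read 39.4 and 40.2 CPM against 29.2 and 20.9.

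Map3k7 (ENSMUSG00000028284, protein coding, GRCm38 chr4:31964097-32023467, plus strand) read 6.28 and 7.07 CPM at the tenotomy site against 6.50 in uninjured replicate 1 and 8.09 in uninjured replicate 2. The groups overlapped, since uninjured replicate 1 lay between the tenotomy libraries. The log2 fold change was -0.13 (SE 0.17), with an adjusted edgeR p-value of 0.775. Its sign turned to 0.12 with the title series as a covariate and to 0.04 against uninjured replicate 1 alone. The covariate fit rests on tenotomy replicate 2 against uninjured replicate 1, since no other title series holds both groups. Of 23 tested genes of the TAK1 pathway list, 2 lay above and 8 below both uninjured libraries, where 20.1% of all tested genes lay above and 20.4% below. The median log2 fold change was -0.16. Chuk and Rela, of the NF-κB branch, were the 2 above.

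Tab2, an adaptor that joins TAK1 to its activators, read 9.22 and 8.97 CPM against 9.52 and 11.8. Mapk12, a p38 kinase abundant in muscle, read 1.99 and 1.80 CPM against 2.41 and 6.06. Map2k3, an activator of p38, read 3.10 and 3.77 CPM against 3.88 and 11.1. In the last pair uninjured replicate 1 lay beside the tenotomy libraries, and only uninjured replicate 2 stood apart.

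**Figure D3:**
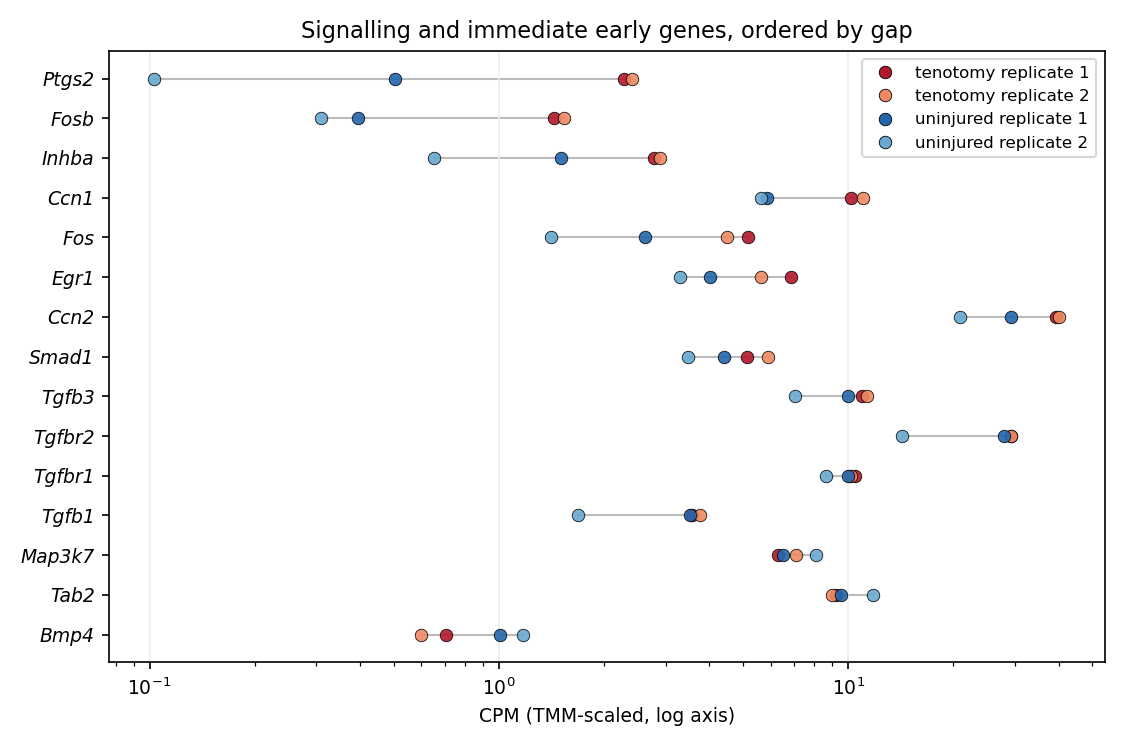
Expression of 15 signalling and immediate early genes in CPM (log axis), one point for each of the 4 libraries, ordered by the gap between groups. Ptgs2 and Fosb at the top have both uninjured points at least 2-fold left of the tenotomy points, and the Map3k7 points near the bottom overlap.

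Immediate early genes are those that cells transcribe within minutes of a stimulus. Of 17 tested, 11 lay above both uninjured libraries and 0 below, where 20.1% of all tested genes lay above and 20.4% below. The median difference was 0.41 on the log2 scale from uninjured replicate 1 and 0.39 from uninjured replicate 2, but single members differed. Both tenotomy libraries were at least 2-fold above uninjured replicate 1 at 1 member (all genes 0.942%) and above uninjured replicate 2 at 5 (all genes 8.17%). None of the 17 passed the edgeR test of both groups. Fosb read 1.44 and 1.53 CPM at the tenotomy site against 0.395 and 0.310, a gap of 1.71. Fos read 5.17 and 4.50 CPM against 2.62 and 1.41. Egr1, also a factor of tendon cells, read 6.85 and 5.63 CPM against 4.02 and 3.30.

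Ccn1, a matricellular gene that responds to growth factors and stretch, also lay above both uninjured libraries. It read 10.2 and 11.0 CPM at the tenotomy site against 5.86 and 5.64, so the uninjured libraries were alike. DESeq2 called it, with a log2 fold change of 0.89 and an adjusted p-value of 0.0341, and edgeR gave 0.88 (SE 0.18) with 0.45. Its uncut-limb values of 6.77 to 9.29 CPM lay between the groups. Mt2, a metallothionein, read 7.67 and 6.57 CPM against 4.28 and 4.23.

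Ptgs2 (ENSMUSG00000032487, protein coding, GRCm38 chr1:150100031-150108227, plus strand) encodes cyclooxygenase-2, which makes prostaglandins in inflamed and healing tissue. It read 2.28 and 2.40 CPM at the tenotomy site against 0.503 in uninjured replicate 1 and 0.103 in uninjured replicate 2, a gap of 2.05. Its log2 fold change of 2.95 (SE 0.56) had an adjusted edgeR p-value of 0.45. It was the only one of 12 tested chemokine and inflammation genes with a 2-fold gap. Ccl8, a chemokine of macrophages, read 6.12 and 6.73 CPM against 5.39 and 0.241. Ccl2, Il1b, Il6 and Tnf were removed by the filter on low counts.

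Further genes with a 2-fold gap upward lay outside the lists, and those given here were picked after their values were seen. Has1, an enzyme that makes hyaluronan, read 2.01 and 1.87 CPM at the tenotomy site against 0.647 and 0.241. Rspo2, a secreted enhancer of WNT signalling, read 0.707 and 0.700 CPM against 0.287 and 0.103. Tfpi2, a protease inhibitor of the matrix, read 1.06 and 1.07 CPM against 0.359 and 0.0344. Knstrn and Ckap2l, genes of the mitotic spindle, had gaps of 1.87 and 1.65. All 5 are low genes, with at most 2.01 CPM in any of the 4 libraries.

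Tendon genes lay above both uninjured libraries by small steps. Of 18 tested, 15 lay above and 0 below, where 20.1% of all tested genes lay above and 20.4% below. The list had no 2-fold gap and a median log2 fold change of 0.68. The median difference was 0.14 from uninjured replicate 1 and 1.24 from uninjured replicate 2. Scx, the transcription factor of tendon progenitors, read 1.33 and 1.73 CPM at the tenotomy site against 0.934 and 0.585. Tnmd (tenomodulin), the marker of mature tendon cells, read 28.5 and 27.3 CPM against 25.3 and 11.8. Both markers were present in all 4 libraries, as the tissue label says. Mkx and Fmod overlapped.

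Among tendon collagens, the type I genes differed from the type III gene. Col1a1 read 2565 and 2583 CPM at the tenotomy site against 2357 in uninjured replicate 1 and 2214 in uninjured replicate 2. All 4 were far above the uncut limbs of burned mice, which read 373 to 478 CPM. Col3a1, the collagen of young scar, read 2011 and 1999 CPM against 1808 and 384. For Col3a1 uninjured replicate 2 stood apart, and for Col1a1 it did not.

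Wound matrix genes had the same form as Col3a1. Of 27 tested, 24 lay above and 1, Cilp2, below both uninjured libraries (all genes 20.1% and 20.4%), with a median log2 fold change of 0.86. Postn (periostin), an adhesion protein of healing tissue, read 382 and 392 CPM at the tenotomy site, 278 in uninjured replicate 1 and 13.7 in uninjured replicate 2. Its log2 fold change of 1.41 (SE 1.01) had an adjusted edgeR p-value of 0.598. Tnc (tenascin-C) read 77.5 and 79.9 CPM against 54.3 and 9.39. Has2, a hyaluronan synthase, read 2.28 and 2.43 CPM against 1.62 and 0.929. The list lay a median of 0.22 above uninjured replicate 1 and 1.80 above uninjured replicate 2.

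Enzymes that mature collagen held some of the wider gaps among abundant genes. Of 22 tested procollagen processing genes, 18 lay above and 1, Tmem38b, below both uninjured libraries (all genes 20.1% and 20.4%). Plod2, a lysyl hydroxylase that sets the pyridinoline cross-links of scar and cartilage, read 18.7 and 18.1 CPM at the tenotomy site against 9.88 and 2.96. DESeq2 called Plod2 with an adjusted p-value of 0.045, where edgeR gave 0.45. P4ha3, a prolyl hydroxylase, read 3.32 and 3.37 CPM against 1.80 and 0.206. Plod3 and P3h4 had gaps of 0.48 and 0.60.

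Metalloproteinases, which cut the matrix, were high in 3 libraries. Of 20 tested proteinases and inhibitors, 10 lay above both uninjured libraries and 0 below (all genes 20.1% and 20.4%). Mmp13, the collagenase of cartilage and bone, read 30.2 and 31.1 CPM at the tenotomy site, 23.0 in uninjured replicate 1 and 0.0688 in uninjured replicate 2, the last being 2 counts. The uncut limbs read at most 0.0928 CPM. Timp1, an inhibitor of these enzymes, read 5.96 and 4.73 CPM against 3.52 and 0.619. Mmp3 overlapped, at 8.81 and 8.97 CPM against 9.45 and 0.344.

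Genes of the muscle fibre lay below both uninjured libraries at nearly every member. Of 28 tested, 27 lay below and 0 above (all genes 20.4% and 20.1%), with a median log2 fold change of -2.31. None passed the edgeR test of both groups, and DESeq2 called 24 lower, as it did 4.7% of the genes it gave an adjusted p-value. The median difference was -0.38 from uninjured replicate 1 and -3.11 from uninjured replicate 2, and none of the 28 had a 2-fold gap. Acta1 (skeletal α-actin) read 81.7 and 79.4 CPM at the tenotomy site, 110 in uninjured replicate 1 and 1247 in uninjured replicate 2. Its log2 fold change of -3.07 (SE 0.92) had an adjusted edgeR p-value of 0.45.

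Fibre types differed in how far uninjured replicate 1 lay from the tenotomy site. Myh2, the myosin of fast oxidative fibres, read 37.7 and 36.1 CPM at the tenotomy site against 67.5 and 536, a gap of 0.84. Myh7, the myosin of slow fibres, read 24.6 and 24.6 CPM against 40.3 and 243. Tnnt1, the slow troponin T, read 4.73 and 4.90 CPM against 8.84 and 35.2. Myh4, the myosin of the fastest fibres, read 377 and 381 CPM against 440 and 2783, a gap of 0.21. Myh1, the other fast myosin, overlapped at 35.82 and 36.96 CPM against 35.64 and 473, and its fitted sign turned against uninjured replicate 1 alone (0.03). Reads can be split wrongly between these near-identical myosins, so single myosin values are uncertain.

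The 12 abundant genes with the widest downward gaps had gaps between 0.65 and 0.98. They were Apobec2, Smpx, Chad, Flnc, Tnnt1, Myh2, Ckmt2, Cox6a2, Fabp3, Myh7, Myl3 and Myl2, and all but Chad are genes of striated muscle. Apobec2, a muscle protein of the cytidine deaminase family, read 3.29 and 2.93 CPM at the tenotomy site against 6.58 and 23.9. Fabp3, the fatty acid carrier of oxidative muscle, read 2.42 and 2.23 CPM against 4.06 and 45.4. Ankrd2, a stretch-responsive gene of slow muscle outside the lists and picked after its values were seen, read 0.898 and 0.933 CPM against 2.12 and 12.6, a gap of 1.13.

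**Figure D4:**
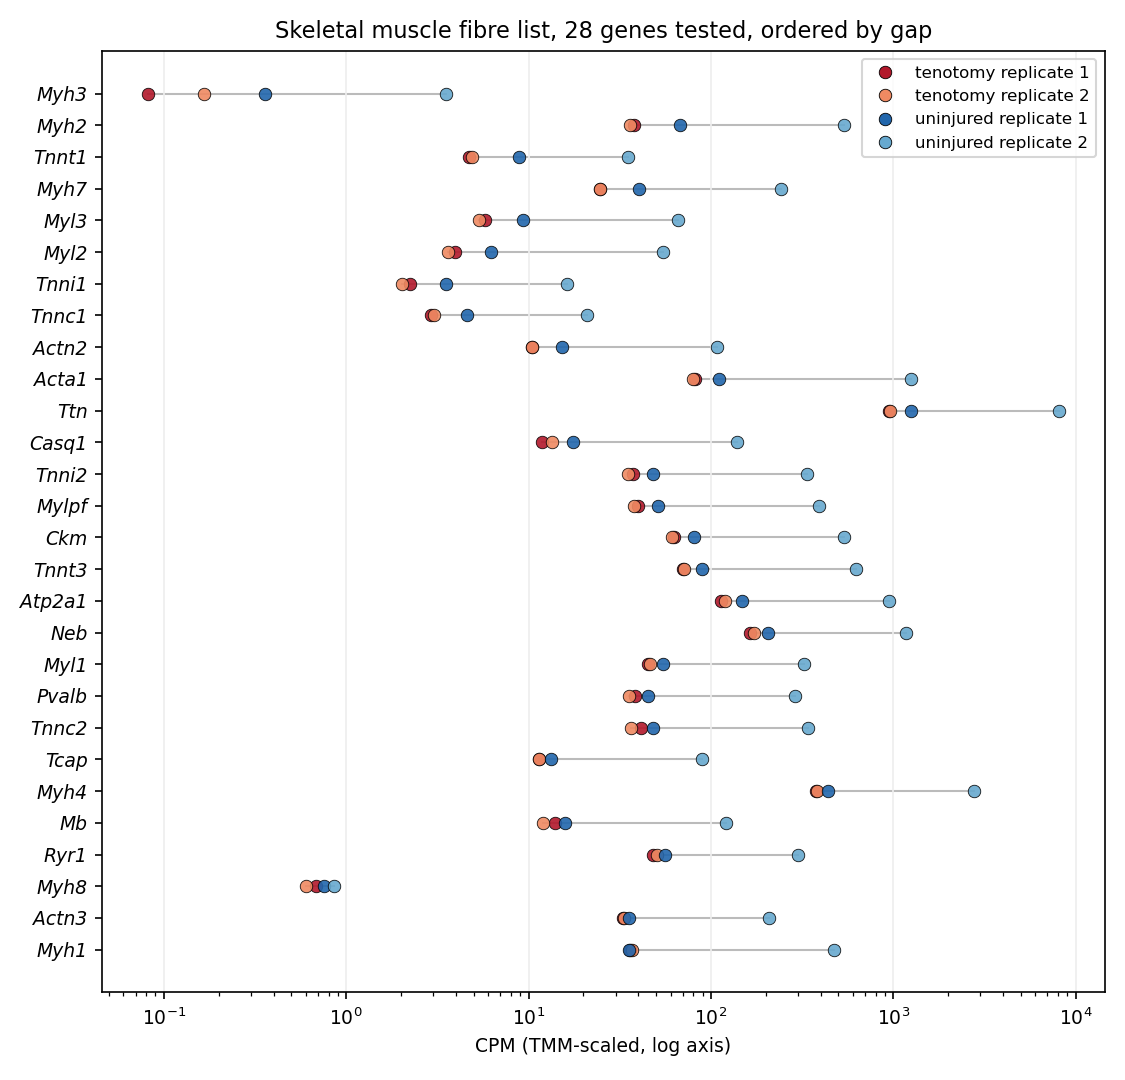
Expression of the 28 skeletal muscle fibre genes in CPM (log axis), one point for each of the 4 libraries, ordered by the gap between groups. At 27 genes both tenotomy points lie left of both uninjured points, with uninjured replicate 1 close to them and uninjured replicate 2 far to the right.

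Energy metabolism genes, many of them abundant in muscle, had the same order of libraries. Of 17 fatty acid oxidation genes 15 lay below both uninjured libraries and 0 above (all genes 20.4% and 20.1%). Acadvl, the first dehydrogenase of the pathway for long chains, read 4.16 and 3.80 CPM at the tenotomy site against 5.35 and 19.8. Of 26 oxidative phosphorylation genes 18 lay below and 0 above. Cox6a2, the muscle form of a cytochrome oxidase subunit, read 2.96 and 2.80 CPM against 5.03 and 35.4.

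Glycolysis genes were split by isoform. Of 19 tested, 11 lay below and 3 above both uninjured libraries (all genes 20.4% and 20.1%). Eno3, the muscle enolase, read 18.2 and 17.3 CPM at the tenotomy site against 24.4 and 141. Eno1, the enolase of most other cells, read 16.9 and 16.1 CPM against 13.4 and 11.2. Pgam1 and Pfkp, also the forms of non-muscle cells, were the other members above.

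Contractile genes of smooth muscle and myofibroblasts lay below as well. Of 12 tested, 10 lay below and 0 above (all genes 20.4% and 20.1%), with a median log2 fold change of -0.79, and some of the list, such as Des and Tpm2, are also genes of skeletal muscle. Acta2, the actin of smooth muscle and myofibroblasts, read 15.1 and 15.7 CPM at the tenotomy site against 18.0 and 22.2. Cnn1, the calponin of smooth muscle, read 0.462 and 0.400 CPM against 1.11 and 1.62 and was the only member with a 2-fold gap. Myh11, the smooth muscle myosin, read 11.3 and 11.3 CPM against 16.5 and 34.0.

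Genes of other tissue cells gave mixed orders, and their counts are to be read against the 20.1% of all genes above and 20.4% below. Of 13 tested adipocyte genes, 4 lay below and 0 above, and the median difference turned from 0.15 against uninjured replicate 1 to -1.55 against uninjured replicate 2. Adipoq (adiponectin) read 7.21 and 8.67 CPM at the tenotomy site against 6.11 and 18.7. Of 17 endothelial genes 9 lay below and 1, Plvap, above. Kdr, the main receptor for vascular endothelial growth factor, read 5.06 and 5.23 CPM against 6.54 and 11.0, while Pecam1 read 18.0 and 17.5 CPM against 18.4 and 18.9.

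Schwann cell genes set uninjured replicate 1 lowest and uninjured replicate 2 highest for myelin. Mbp (myelin basic protein) read 18.2 and 18.5 CPM at the tenotomy site, 13.3 in uninjured replicate 1 and 48.8 in uninjured replicate 2. Of 14 tested members, 4 lay above both uninjured libraries and 0 below, a share above that is near the 20.1% of all genes. Sox10, the factor of the Schwann lineage, read 2.37 and 2.03 CPM against 1.51 and 1.38. Gfap, made by non-myelinating and repair Schwann cells, had a gap of 1.08 at 0.299 and 0.300 CPM against 0.108 and 0.0344, or 11 and 9 counts against 3 and 1.

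Immune genes separated uninjured replicate 2 from the other 3 libraries. Of 17 tested macrophage genes, 8 lay above both uninjured libraries and 0 below (all genes 20.1% and 20.4%), with a median difference of 0.09 from replicate 1 and 1.62 from replicate 2. Adgre1 (F4/80), a surface marker of mouse macrophages, read 6.66 and 6.80 CPM at the tenotomy site against 5.75 and 1.34. Fcgr1, an activating antibody receptor, had the widest gap of the list, 0.72, at 1.17 and 1.60 CPM against 0.683 and 0.138. Lyz2 overlapped, at 49.7 and 53.2 CPM against 55.5 and 9.60. Of 9 antigen presentation genes, 5 lay above and 0 below, and Cd74, the chaperone of class II molecules, read 32.7 and 32.9 CPM against 30.2 and 6.71.

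Other blood cell lists had shares near those of all genes or too few members to read. Of 7 tested neutrophil and mast cell genes 2 lay above and 0 below, and the neutrophil genes S100a8, S100a9 and Ly6g were removed by the filter. Of 5 tested lymphocyte genes 1 lay above and 1 below. Of 5 tested erythroid genes 2 lay above and 0 below, and summed haemoglobin and erythroid levels ranged only from 63.8 to 69.7 CPM over the 4 libraries. Of 10 keratinocyte genes only Dsp was tested, at no more than 0.395 CPM.

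Proliferation genes followed the immune genes. Of 18 tested, 8 lay above both uninjured libraries and 0 below (all genes 20.1% and 20.4%), with a median log2 fold change of 0.53. Mki67, the marker of cycling cells, read 7.23 and 6.87 CPM at the tenotomy site against 5.82 and 0.619. Cdk1, the kinase that starts mitosis, read 1.01 and 0.633 CPM against 0.395 and 0.103 and had the widest gap of the list, 0.60. Of 16 tested hypoxia and glucocorticoid response genes, 3 lay above and 4 below. Of 7 tested myogenic regulators, 2 lay below and 0 above.

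**Figure D5:**
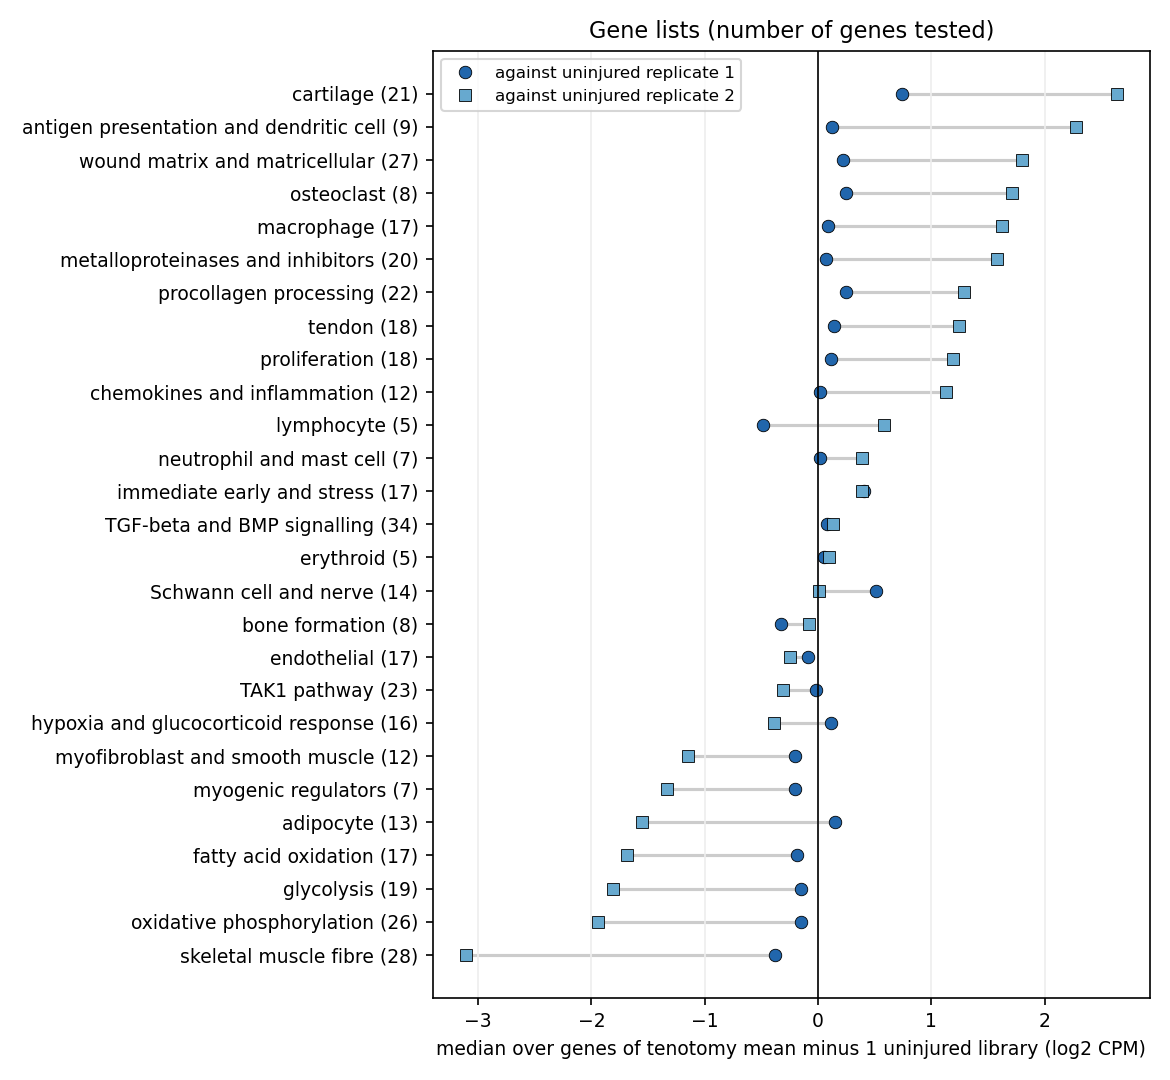
Median over each list's tested genes of the tenotomy mean minus 1 uninjured library, in log2 CPM, against uninjured replicate 1 (circles) and uninjured replicate 2 (squares), for lists with at least 5 tested genes (number in brackets). Most circles lie near 0 and most squares far from it. Cartilage has the rightmost circle, at 0.74, and the immediate early list has its 2 points nearly on each other, at 0.41 and 0.39.

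The genes that most divided the uninjured libraries came from the same groups. Higher in uninjured replicate 1, by rank, were Mmp13, Tnn, C1qtnf3, Cthrc1 and Lrrc15. Tnn (tenascin-W), a matrix protein of tendon and bone surfaces, read 22.2 CPM there and 0.103 CPM in uninjured replicate 2, against 29.6 and 30.3 CPM at the tenotomy site. C1qtnf3, a secreted protein of cartilage and connective tissue, read 38.8 and 0.723 CPM, against 63.4 and 62.1 CPM at the tenotomy site. Lower in uninjured replicate 1 were Myh1, Acta1, Fabp3, Myl2 and Ckmt2, all genes of muscle. For all 10, uninjured replicate 1 was nearer to the tenotomy libraries than to uninjured replicate 2.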

How the data were processed

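Each library has a deposited table of 103639 mouse transcripts with estimated counts and TPM. The submitters' processing notes name kallisto, FastQC 0.11.4 and the human build GRCh38, while the transcript identifiers are mouse. Per the file headers, the deposited estimated counts are raw, and the TPM deposited by the authors are scaled by effective length. Estimated counts were summed per gene over GENCODE M21 (GRCm38), which matched 101510 identifiers, and rounded. The 2129 others stayed single features. Genes were filtered with filterByExpr (minimum 10 counts), which left 16028, and tested with the quasi-likelihood test of edgeR 4.0.16 in 1 fit of 7 libraries, with TMM scaling and Benjamini-Hochberg adjustment. The other tools were DESeq2 1.42.0 and limma-voom 3.58.1. The gap used log2 CPM with a prior count of 2. The scripts were tested on simulated data.

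The groups, gene lists and naming rule were chosen with earlier results of these data known. The rule named 15 genes whatever their values, the 12 widest gaps in each direction at a mean log2 CPM of at least 2, up to 4 separated members of each list, and the 5 genes in each direction that most divided the uninjured libraries. Further members are given for their role. Some results are not reported here.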

Additional observations from a re-analysis of the deposited data

How the results depend on the processing

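No gene was called by edgeR under 2 other scalings, the stricter filter, length-scaled TPM, the 4 libraries alone, removal of the 5 most abundant features, or without any 1 of the tenotomy or uncut-limb libraries, nor by limma-voom. Calls higher and lower numbered 5 and 140 with DESeq2 and 10 and 5 with no filter on low counts. DESeq2 without independent filtering (chosen after seeing the data) gave 12 and 43. With the title series as a covariate, the contrast reduced to tenotomy replicate 2 against uninjured replicate 1. Some genes were called there, but such calls do not compare the groups. Leaving out 1 library gave 0 to 1937 calls higher and 0 to 2338 lower, the highest without uninjured replicate 1 and, without uninjured replicate 2, 10 and 4. A filter of 50 counts in 2 libraries left 2074 genes above and 2096 below both uninjured libraries, with 16 and 14 at a 2-fold gap. It left 24 genes 2-fold above and 16 below uninjured replicate 1, and 752 above uninjured replicate 2. Genes with a 2-fold gap downward numbered 58 with length-scaled TPM and 60 with a prior count of 0.5, and those 2-fold below uninjured replicate 1 numbered 156 and 125. Without 1 of the 4 libraries, 4881 to 6734 genes lay above and 4971 to 6850 below, 90 to 1310 and 81 to 1396 of them with a 2-fold gap, since fewer libraries had to be cleared. Without 1 tenotomy library, 275 to 283 genes were 2-fold above and 290 to 376 below uninjured replicate 1. All 8 cartilage genes with a 2-fold gap kept it under both other scalings and with length-scaled TPM, and 7 passed the filter of 50 counts with it. A prior count of 0.5 shrinks ratios of low counts less, so keeping the gap under it was near certain. All 53 genes higher and all 36 lower kept it there, the 8 among them. Medians of the 28 lists changed sign for 2 (bone formation, Schwann cell) under the filter of 50 counts and for 3 (adipocyte, lymphocyte, hypoxia and glucocorticoid response) without uninjured replicate 2. They moved beyond the spread of libraries for 10 without uninjured replicate 1 and 11 without uninjured replicate 2. For the other changed counts the cause was not tested.

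No paired analysis was possible, because tenotomy and uninjured libraries came from different mice, with burn and tenotomy or with neither. The labels give no replicate numbers, and those used here follow the order of the libraries in the series. With 2 libraries a group, and 1 of the uninjured libraries beside the tenotomy group, a missed test does not show that a gene is level between groups. Low genes rest on few counts.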

Other observations

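Vwf, an endothelial gene, paired 1 library of each group. It read 15.7 and 3.73 CPM in tenotomy replicates 1 and 2 and 18.2 and 4.23 CPM in uninjured replicates 1 and 2, while Pecam1, also endothelial, read 17.5 to 18.9 CPM over the 4 libraries. The predicted gene Gm10925 read 52.8 and 17.4 CPM against 49.6 and 0.310.

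Type I collagen and Sparc set both uninjured libraries with the tenotomy site and apart from the uncut limbs. Col1a2 read 1852 and 1852 CPM at the tenotomy site, 1711 and 1489 CPM in the uninjured libraries, and 337 to 469 CPM in the uncut limbs of burned mice. Sparc, a collagen-binding protein, read 670 and 668 CPM, 612 and 511 CPM, and 171 to 217 CPM in the same order. Other genes set uninjured replicate 2 nearer to the uncut limbs. The skeletal muscle fibre list summed to 2902 and 19510 CPM in uninjured replicates 1 and 2, and to 26120 to 28910 CPM in the uncut limbs. The macrophage list summed to 174.9 and 55.7 CPM, and to 44.8 to 56.4 CPM, in the same order.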
